A study of Mus musculus with 6 samples.

Results

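Keratins 18, 8, 7 and 19 are the intermediate filament proteins of simple epithelia, and their RNA was followed here through the first days of life in the mouse ovary. The clones were chosen by their annotation: every spotted clone annotated as part of a keratin complex or as keratin 7, 8, 18 or 19 was taken. That gave 7 clones of 4 genes among 8272 clones on the array, with 2 clones of Krt18, 3 of Krt8, 1 of Krt7 and 1 of Krt19. The family was picked with its day 4 log2 ratios already known from these arrays, so the values of the 7 clones are a description. Limma outcomes given for these clones are part of that description and carry no weight as tests.

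Whole ovaries of C57Bl/6J pups were collected within a day of birth (day 0) and on days 2 and 4 after birth, the period in which this strain assembles its first follicles and the youngest of them begin to grow. RNA of day 2 (3 arrays) or day 4 (3 arrays) was labelled with Cy5 and set on the same spotted cDNA array against day 0 RNA labelled with Cy3. Each value is a log2 ratio of the later day over day 0, so that a value below 0 is a lower signal than at day 0, and it is the mean of up to 4 repeats on 1 slide. A single day 0 RNA served array 3 of both ages, different day 0 RNAs served the remaining 4 arrays, and the labels do not say how many pups gave each RNA.

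Keratin filaments are built from pairs of a type I and a type II chain. Krt18 (type I) and Krt8 (type II) are the basic pair of simple epithelia and depend on each other for stability. Krt7 is a further type II chain and Krt19 a further type I chain, both often found in duct and surface linings. In the ovary, keratin filaments are known from the surface epithelium and from the pregranulosa cells that surround the oocytes as follicles form.

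The promoters of Krt18 and Krt8 are shown because both genes of the pair were below day 0 on all day 4 arrays with a value. RefSeq sequences of the 250 bases before the gene start on build GRCm38.p6 were matched for 3 of the 4 genes. Capitals mark matches on either strand to TATAA (the core of the TATA box), to GGGCGG (a core of GC-box elements) or to AGGTCA (the half-site that nuclear receptors bind). The motif TGANTCA (the element of AP-1 factors) was searched in the same way. The motifs were chosen with the sequences in view.
Krt18, chr15:102027966-102028215, plus strand: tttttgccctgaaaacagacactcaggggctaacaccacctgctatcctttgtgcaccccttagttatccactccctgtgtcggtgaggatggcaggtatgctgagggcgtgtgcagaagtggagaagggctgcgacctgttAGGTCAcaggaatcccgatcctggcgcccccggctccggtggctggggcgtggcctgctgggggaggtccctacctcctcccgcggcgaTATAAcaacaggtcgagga
Krt8, chr15:102004343-102004592, minus strand: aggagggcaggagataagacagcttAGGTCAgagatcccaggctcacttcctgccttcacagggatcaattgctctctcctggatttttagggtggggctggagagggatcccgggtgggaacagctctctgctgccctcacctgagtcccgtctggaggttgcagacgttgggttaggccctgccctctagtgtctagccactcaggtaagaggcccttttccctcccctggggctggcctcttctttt

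Both windows lie on chromosome 15 on opposite strands, with 23373 bases between them. The Krt18 window held TATAA 19 to 15 bases before the start, and these letters were not in the Krt8 and Krt7 windows. AGGTCA stood 108 to 103 bases before the start of Krt18 and 225 to 220 bases before that of Krt8. Of 32851 mouse promoter windows of this length, 22.8% held TATAA and 14.0% held AGGTCA on either strand. GGGCGG, present in 32.7% of windows, matched 4 times in the Krt7 window (chr15:101412153-101412402, plus strand) and in neither of the other two. No window of the 3 genes held TGANTCA, which 6.75% of windows held. GC content was 60.4% for Krt18, 58% for Krt8 and 66% for Krt7.

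Krt18 RNA was lower on day 4 than on day 0 in both of its clones, by unequal amounts. Clone BG077966, the brighter one, gave log2 ratios of -0.90, -0.56 and -0.18 on the 3 day 4 arrays, a mean of -0.55 ± 0.36 (SD, n = 3), or 1.46-fold below day 0. Its day 2 values were -0.32, -0.47 and 0.23, with a mean of -0.19 ± 0.37 (SD, n = 3). Array 3 was the highest of each age, and the ranges of both ages overlapped. Day 4 was the lowest of the 3 ages. The place of day 2 against day 0 is not settled, since day 2 arrays 1 and 2 oppose each other over all clones. The day 2 mean was 0.03 if array 1 was sign-turned and 0.13 if array 2 was.

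Clone BG063483 of Krt18 gave -1.39 and -1.87 on day 4 arrays 1 and 2, a mean of -1.63 ± 0.34 (SD, n = 2), or 3.10-fold below day 0. On day 4 array 3 it lay in a failed area of the slide and has no value. Its day 2 values were -0.57, -0.16 and 0.17, with a mean of -0.19 ± 0.37 (SD, n = 3), the same mean to 2 decimals as the brighter clone. All day 4 values of this clone were below all of its day 2 values. On arrays 1 and 2 alone the brighter clone had a day 4 mean of -0.73, or 1.66-fold below day 0, which is still above both values of BG063483.

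**Figure D1:**
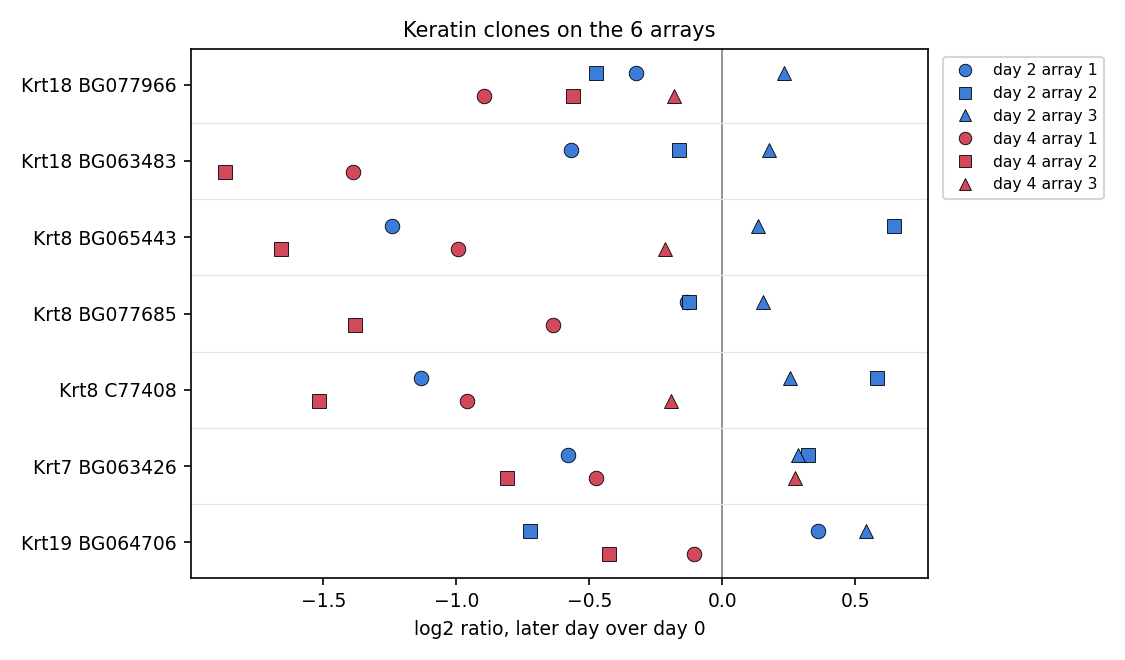
Log2 ratio of the later day over day 0 (x axis) for each keratin clone (y axis) on the 6 arrays, with day 2 in blue, day 4 in red and the array number as the shape. On day 4 arrays 1 and 2 all 7 clones lie below 0, down to -1.87 for Krt18 clone BG063483, while the 4 values of day 4 array 3 lie between -0.22 and 0.27.

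The 2 Krt18 clones were near each other at day 2 and apart at day 4. They differed by 0.25, 0.31 and 0.06 on the day 2 arrays, by 0.49 on day 4 array 1 and by 1.31 on day 4 array 2. On day 4 array 2, 97.5% of 1139 pairs of clones with the same gene name differed by less, with a median difference of 0.22. On day 4 array 1, 82.8% of 899 such pairs differed by less. The pairs were not matched to the Krt18 clones on intensity or on the size of the log2 ratio. On day 4 array 2 the repeats ran from -0.92 to -0.29 for BG077966 and from -2.04 to -1.69 for BG063483, and on day 4 array 1 from -1.18 to -0.62 and from -1.42 to -1.36. The repeats of the clones thus did not overlap on either array, although those of BG077966 on array 1 spread over more than the gap between the clone means. The size of the Krt18 difference at day 4 therefore depends on the clone, while its sign does not.

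**Figure D2:**
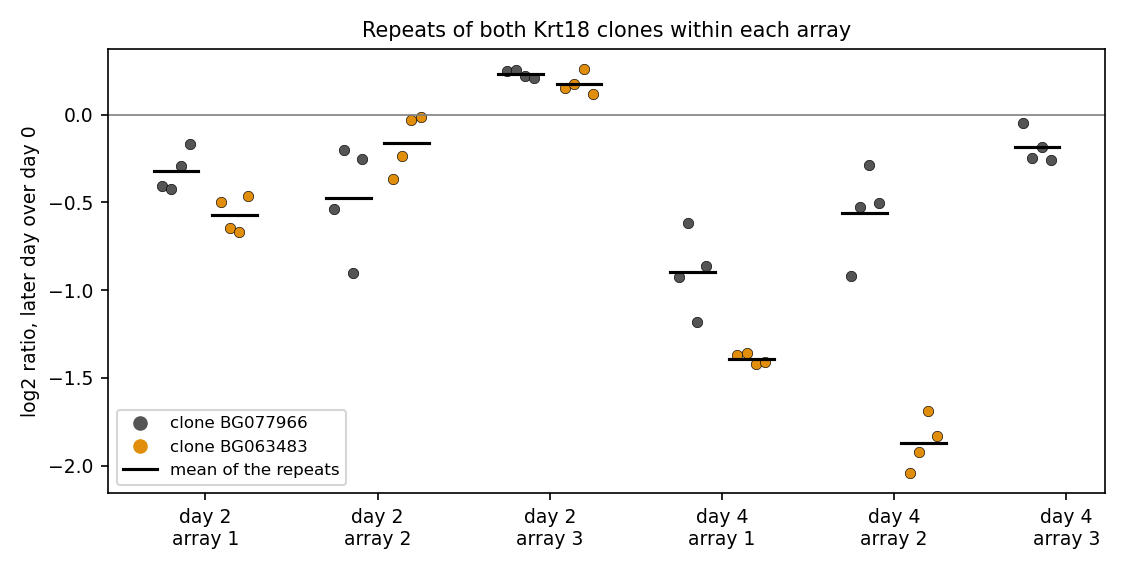
Log2 ratios (y axis) of the single repeats of both Krt18 clones on each array (x axis), with a bar at the mean of the repeats. The clones overlap or nearly meet at day 2 and separate at day 4, where the repeats of BG063483 run from -1.42 to -1.36 on array 1 and from -2.04 to -1.69 on array 2, and clone BG063483 has no value on day 4 array 3.

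Krt8, the type II partner of Krt18, was below day 0 on day 4 in all 3 of its clones by similar amounts. Clone BG065443 gave -0.99, -1.66 and -0.22, a mean of -0.96 ± 0.72 (SD, n = 3), or 1.94-fold below day 0. Clone C77408 gave -0.96, -1.52 and -0.19, a mean of -0.89 ± 0.66 (SD, n = 3), or 1.85-fold below day 0. Clone BG077685 gave -0.64 and -1.38 on the arrays where it had a value, a mean of -1.01 ± 0.53 (SD, n = 2), or 2.01-fold below day 0. The clones differed by 0.36, 0.28 and 0.02 at most on day 4 arrays 1, 2 and 3, so that the spread of Krt8 on day 4 lay between arrays and not between clones. On day 4 array 1 these means rest on 2 or 3 repeats.

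At day 2 the Krt8 clones did not share a sign across arrays. Clone BG065443 gave -1.24, 0.65 and 0.13, with a mean of -0.15 ± 0.98 (SD, n = 3), and on array 2 it carries a mark in the deposited file that was read as discordant repeats. Clone C77408 gave -1.13, 0.58 and 0.25, with a mean of -0.10 ± 0.91 (SD, n = 3). Clone BG077685 stayed near 0 with -0.13, -0.12 and 0.15, a mean of -0.03 ± 0.16 (SD, n = 3). Its repeats on day 2 array 1 ran from -0.61 to 0.39, while those of the other clones ran from -1.66 to -1.01 and from -1.31 to -0.97. Both day 4 values of clone BG077685, which lacks day 4 array 3, were below its day 2 values. For BG065443 and C77408 all day 4 values were below the day 2 values only with the sign of day 2 array 1 turned.

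Krt7 and Krt19, the accessory chains, had day 4 means closer to day 0 than those of the Krt18 and Krt8 clones. For Krt7 this did not hold on every array: on day 4 array 2 it was below Krt18 clone BG077966, which was at -0.56. Krt7 gave -0.48 and -0.81 on day 4 arrays 1 and 2 and 0.27 on array 3, a mean of -0.34 ± 0.56 (SD, n = 3), or 1.26-fold below day 0. Its day 2 values of -0.58, 0.32 and 0.29 had a mean of 0.01 ± 0.51 (SD, n = 3). It was the only keratin clone above day 0 on a day 4 array. Krt19 gave -0.11 and -0.43 on day 4 arrays 1 and 2 and lay in the failed area of array 3, a mean of -0.27 ± 0.23 (SD, n = 2), or 1.20-fold below day 0. Its day 2 values of 0.36, -0.72 and 0.54 had a mean of 0.06 ± 0.68 (SD, n = 3), and both ages overlapped for Krt7 and for Krt19.

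Since 3 clones lack day 4 array 3, the clones were ordered on day 4 arrays 1 and 2, where all 7 have a value. The means were -1.63 for Krt18 clone BG063483, -1.33, -1.24 and -1.01 for the Krt8 clones BG065443, C77408 and BG077685, -0.73 for Krt18 clone BG077966, -0.64 for Krt7 and -0.27 for Krt19. Each gap to the next clone was within the larger SD of both clones, except the gap of 0.38 between Krt7 and Krt19, whose SDs over these 2 arrays were 0.24 and 0.23. These SDs hold differences between the 2 arrays that clones can share, so they do not measure the spread of a gap. Within each array the same order held, except that BG077966 was below BG077685 on array 1 and above Krt7 on array 2. With the brightest clone standing for each gene, the median of the 4 genes was -0.44 at day 4 and -0.07 at day 2.

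All 7 clones had a day 4 mean below 0, as did 50.2% of the 8135 clones tested on the array. A day 4 mean below -0.5 was found in 5 of the 7 clones and in 6.04% of all clones. On every day 4 array with a value, 6 of the 7 were below 0, against 25.2% of all clones. These counts describe the pattern for which the family was picked, and nothing further is read from them. By limma with Benjamini-Hochberg adjustment over all clones, 0 of the 7 clones passed an adjusted p of 0.05 at day 4, where 0.479% of all clones passed, all 39 of them higher than day 0. At an unadjusted p under 0.05 the same limma fit held 349 lower and 407 higher clones at day 4.

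On day 4 arrays 1 and 2 the Krt18 and Krt8 clones were near the bottom of all clones of the array. On array 1, 0.23% of clones were lower than Krt18 clone BG063483, 1.22% were lower than BG077966, and 0.78%, 3.31% and 0.95% were lower than the Krt8 clones BG065443, BG077685 and C77408. On array 2, 0.06% were lower than BG063483, 6.71% were lower than BG077966 and 0.11% to 0.23% were lower than the Krt8 clones. Krt7 had 6.60% and 2.32% of clones below it on these arrays, and Krt19 had 31.8% and 11.3%. On day 4 array 3 the keratin clones with a value lay in the body of the distribution. There 28.3% of clones were lower than BG065443, 30.4% than C77408, 31.1% than BG077966 and 75.5% than Krt7. BG063483, the lowest clone on arrays 1 and 2, had no value on array 3, nor did BG077685 and Krt19.

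All 7 clones were free of the low-signal mark on every array with a value. The mark was on 0 clones of day 2 array 1 and on 28 of day 2 array 2, against 997 of day 2 array 3. Its absence therefore says little about signal on day 2 arrays 1 and 2. Among clones within 0.5 log2 units of the same mean intensity, the median log2 ratio stayed between -0.07 and 0.06 on the day 4 arrays, and between -0.28 and 0.14 on the day 2 arrays.

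**Figure D3:**
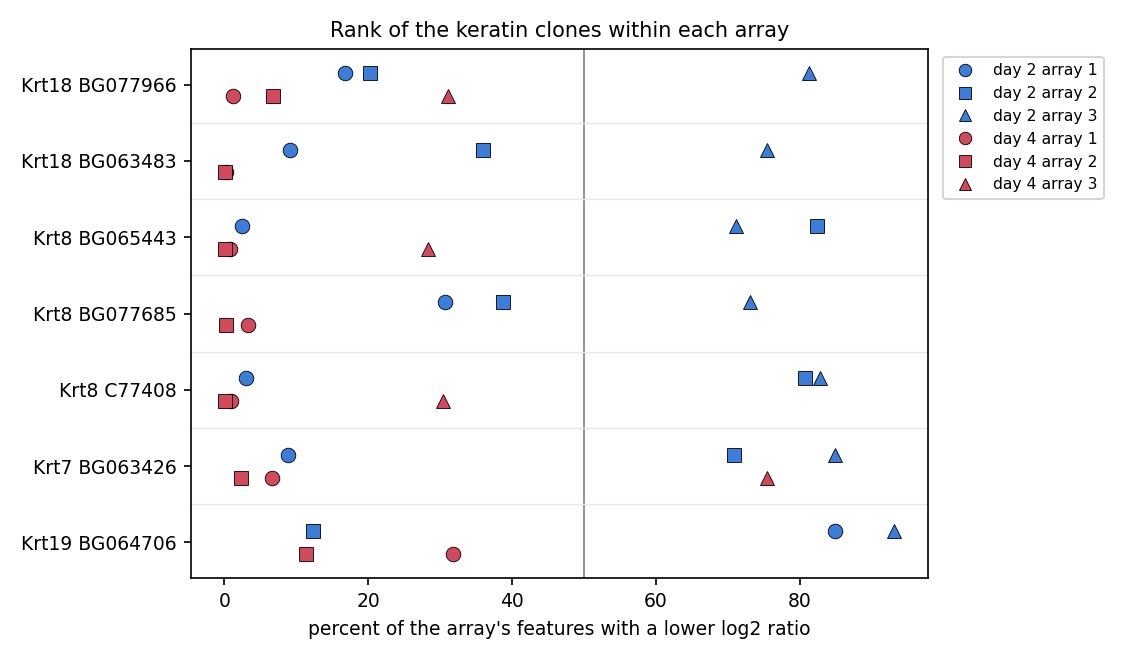
Percent of all clones on the same array with a lower log2 ratio (x axis) for each keratin clone (y axis), with day 2 in blue, day 4 in red and the array number as the shape, and a line at 50%. The Krt18 and Krt8 clones lie between 0.06% and 6.71% on day 4 arrays 1 and 2. Those with a value on day 4 array 3 lie between 28.3% and 31.1% there, and the day 2 points are spread from 2.44% to 93.1%.

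Day 2 has no settled direction. Day 2 arrays 1 and 2 carry the same dye orientation by their labels, yet correlated at r = -0.68 across 8272 clones, which are not independent replicates. Of the 7 keratin clones, 4 had opposite signs on these arrays: Krt8 clones BG065443 and C77408 and Krt7 were below 0 on array 1 and above 0 on array 2, and Krt19 the reverse. Both Krt18 clones and Krt8 clone BG077685 were below 0 on both arrays. With the sign of array 1 turned, the day 2 mean of Krt18 was 0.03 for BG077966 and 0.19 for BG063483, and that of the Krt8 clones lay between 0.05 and 0.67. With the sign of array 2 turned instead, the Krt18 means were 0.13 and -0.08, and the Krt8 means lay between -0.58 and 0.05. By limma 0 of the 7 keratin clones and 0% of all clones passed at day 2. Of the 8135 clones tested, 231 had an unadjusted p under 0.05, a share below the 0.05 that would arise on average with no differences.

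Day 4 was compared with day 2 through day 0. A dye effect common to all arrays drops out of this comparison if every array carries the labelled dye orientation. That is not settled, since day 2 arrays 1 and 2 oppose each other over all clones. The difference was -0.36 (SE 0.28) for Krt18 clone BG077966 and -1.45 (SE 0.30) for BG063483. It was -0.80 (SE 0.59), -0.79 (SE 0.55) and -0.97 (SE 0.28) for the Krt8 clones BG065443, C77408 and BG077685, -0.35 (SE 0.38) for Krt7 and -0.33 (SE 0.43) for Krt19. All 7 differences were thus negative, and by limma 0 of the 7 clones and 0% of all clones passed. Of the 8135 clones tested, 215 had an unadjusted p under 0.05, again a share below 0.05. Turning the sign of day 2 array 1 put the differences between -1.82 and -0.09, and turning that of array 2 put them between -1.55 and -0.13. Every day 4 value was below every day 2 value in 2 of the 7 clones and in 3.98% of all clones. Those keratin clones, BG063483 and BG077685, lack day 4 array 3, and fewer values separate more easily. No keratin clone with a value on all 3 day 4 arrays was separated in this way. With the sign of day 2 array 1 turned, the separation held for 5 of the 7 and 8.16% of all clones. With that of array 2 turned, it held for 3 of the 7 and 9.26% of all clones.

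Array 3 gave the comparison of both later days against the same day 0 RNA. There the brighter Krt18 clone went from 0.23 at day 2 to -0.18 at day 4, a difference of -0.42. Krt8 went from 0.13 to -0.22 in BG065443 and from 0.25 to -0.19 in C77408, differences of -0.35 and -0.45. Krt7 was at 0.29 and 0.27, a difference of -0.01. Array 3 of the 2 ages correlated at r = 0.77 across 5630 clones, above the r of 0.75 between day 4 arrays 1 and 2, and the shared RNA enters both of its values.

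The genes whose 6 log2 ratios were nearest to those of Krt18 clone BG077966 were sought among 2548 named genes by the root mean square difference. The nearest was the nuclear fragile X mental retardation protein interacting protein (0.20), followed by calcium and integrin binding 1 (0.21), the beta subunit of eukaryotic translation initiation factor 3 (0.21), the actin-related protein ARP10 (0.21) and mitogen activated protein kinase 8 (0.22). The nearest of them gave -0.63, -0.56 and -0.03 on the day 4 arrays. Keratins were farther away: Krt7 was at 0.44, with 11.5% of 2908 clones nearer, and the Krt8 clones C77408 and BG065443 were at 0.67 and 0.75, with 63.0% and 74.4% of clones nearer. The median clone was at 0.61. Over all 6 arrays both of these Krt8 clones were thus farther from Krt18 clone BG077966 than the median clone. The distance includes day 2 arrays 1 and 2, which oppose each other over all clones. On array 1 of day 2 BG065443 and C77408 were at -1.24 and -1.13, against -0.32 for BG077966. On array 2 of day 2 they were at 0.65 and 0.58, against -0.47. No distance was taken to the other Krt18 clone, BG063483, which lacks day 4 array 3.

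Proteins that anchor keratin filaments at cell contacts did not pass the test at day 4. Of 22 listed desmosome, hemidesmosome and plakin genes 9 were measured, with 0 passing in either direction by limma, 6 below 0 and a median of -0.11, against -0.00 for all clones. Jup, the plakoglobin of the desmosome plaque, was at 0.30 (SE 0.13, limma adjusted p = 0.56). Dsp, desmoplakin, which ties keratins to the plaque, was at -0.22 (SE 0.13, limma adjusted p = 0.70). Dst, a plakin that links keratins to hemidesmosomes, was at 0.13 (SE 0.11) and Perp, a desmosome membrane protein, at -0.22 (SE 0.25). The sign of Perp rested on array 3, without which it was at 0.01.

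Other intermediate filaments were little represented, with 3 of 15 listed genes measured and 0 passing by limma at day 4. The nuclear lamins Lmna and Lmnb1 were at 0.04 (SE 0.32) and -0.06 (SE 0.17), but a second Lmnb1 clone was at 0.68 (SE 0.13), so the clones of this gene disagree in sign. Lmna was at -0.33 without array 3 and at -0.02 after scale normalization. None of the 4 listed simple keratins outside the rule was measured.

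Proteins that bind or cleave keratins gave the lowest median of the 4 keratin-related lists, -0.44 at day 4, with all 6 measured of 15 listed genes below 0 and 0 passing by limma. The list medians on day 4 arrays 1 to 3 were -0.076, -0.375 and -0.776. The list was thus lowest on array 3, where the keratin clones with a value were near 0. Pnn, pinin, a keratin-binding protein of the desmosome region and of nuclear speckles, was at -0.59 (SE 0.49), and its second clone was at -0.11 (SE 0.55). The adaptor proteins Ywhah, Ywhab and Ywhaz of the 14-3-3 family, some of which bind phosphorylated Krt18, were at -0.48 (SE 0.22), -0.46 (SE 0.34) and -0.41 (SE 0.46). Without day 4 array 3 Pnn was at -0.05 and Ywhab at -0.13, while Ywhah and Ywhaz were at -0.33 and -0.31. The difference of day 4 minus day 2 had a list median of 0.01, which became 0.11 when array 1 of day 2 was sign-turned and -0.42 when array 2 was, so its direction rests on the arrays that oppose each other.

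Epithelial junction and identity genes lay on both sides of 0, with 13 of 28 measured, 0 passing by limma, 7 below 0 and a median of -0.02 at day 4. Cdh1, the adhesion protein E-cadherin, was at 0.38 (SE 0.21, limma adjusted p = 0.67), and its second clone at 0.20 (SE 0.11). Its cytoplasmic partners Ctnnd1 and Ctnna1, p120-catenin and alpha-catenin, were at -0.75 (SE 0.38) and -0.63 (SE 0.27). The second Ctnnd1 clone was at -1.18 (SE 0.35), while 2 further Ctnna1 clones were at 0.03 (SE 0.14) and -0.13 (SE 0.32). Epcam, an epithelial adhesion molecule, was at -0.28 (SE 0.14).

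**Figure D4:**
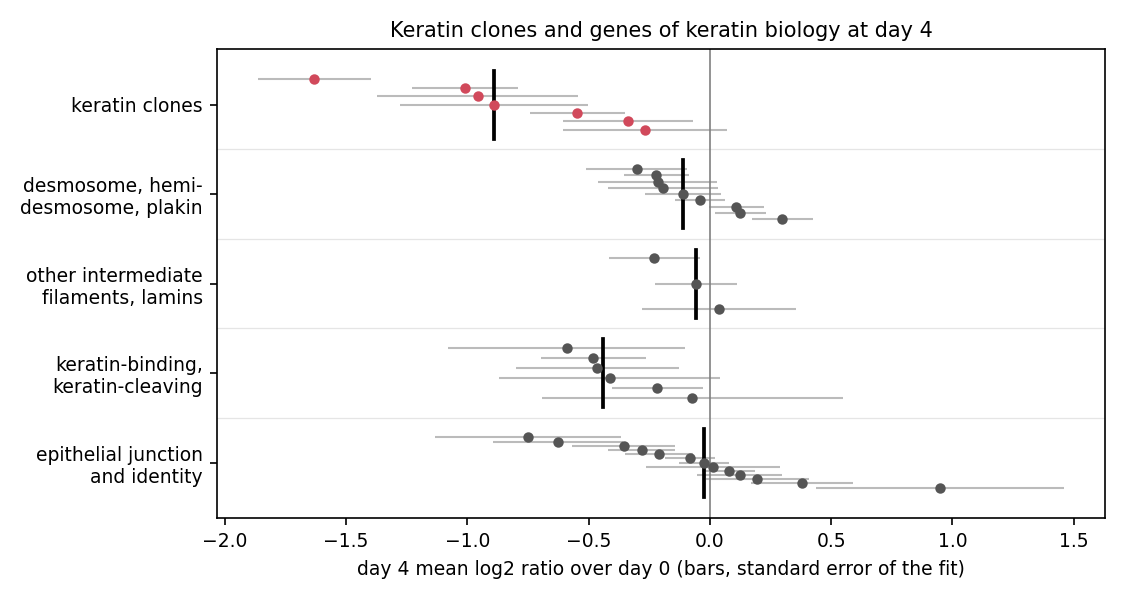
Day 4 mean log2 ratio over day 0 (x axis) of the 7 keratin clones in red and of the measured genes of 4 keratin-related lists in grey (y axis), with bars for the standard error of the limma fit and a black line at each list's median. The keratin clones lie between -1.63 and -0.27, the keratin-binding list has a median of -0.44, and the other 3 lists have medians between -0.11 and -0.02.

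The cells that carry keratins could be checked only in part, since 0 of 14 listed surface epithelium and mesothelium markers were measured. In whole-ovary RNA, fewer cells of a type and less RNA per cell cannot be told apart. Of 20 pregranulosa and granulosa markers 3 were measured and 0 passed by limma at day 4: Dhh, a ligand of granulosa cells, was at 0.42 (SE 0.11, limma adjusted p = 0.26) and the steroidogenic regulator Nr5a1 at -0.07 (SE 0.42). Nr5a1 was at 0.15 without day 4 array 2. With trend and robust moderation Dhh passed in limma (adjusted p = 0.045). Its limma adjusted p ran up to 0.89 over the other alternatives that held this clone. The third marker, the cell cycle inhibitor Cdkn1b, had a value on 2 of the 3 day 4 arrays and was at 0.75 (SE 0.17), and it is named outside the rule with its value seen. The ovarian genes Gdf9, Bmp15, Nr5a1 and Dhh had values free of the low-signal mark on 6 of 6 arrays. However, 0 clones carried that mark on day 2 array 1. Mean log2 intensity was 8.182 for Dhh, 8.587 for Bmp15, 10.985 for Nr5a1 and 8.848 to 11.52 for the Gdf9 clones. The array medians ran from 8.744 to 10.575, so Dhh and Bmp15 were dim. The alternative that left out the dimmest clones gave no value for Dhh.

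Markers of other cells are set beside the keratins here, and their part in the keratin values was not tested. The measured oocyte markers were above 0 at day 4 (8 of 21 measured, median 2.69), and 3 rose by limma: H1f8, the oocyte linker histone, at 2.39 (SE 0.12, adjusted p = 0.0086), Oas1d at 3.05 (SE 0.30, adjusted p = 0.021) and Nlrp14 at 3.64 (SE 0.41, adjusted p = 0.033). With any clone of a gene counted, 5 of the 8 had a clone past the test, Gdf9 and Btg4 being the others, where 0.479% of all clones passed. The 3 named calls were lost when day 4 array 1, 2 or 3, or array 3 of both ages, was left out, and also when day 2 array 2 was sign-turned. Those of Nlrp14 and Oas1d were also lost without day 2 array 3, and that of Nlrp14 when day 2 array 1 was sign-turned. Their log2 ratios stayed between 2.28 and 4.24 under the alternatives run. The oocyte list medians of 2.55, 2.81 and 2.39 on day 4 arrays 1 to 3 were alike, whereas the keratin clones with a value on array 3 were near 0 there. Smooth muscle and stromal markers had a median of 0.47, with 6 of 13 measured and 0 passing by limma. The 2 measured of 10 oviduct markers, with 0 passing by limma, had opposite signs around their median of 0.53. Ovgp1 was at 1.26 (SE 0.36) and Muc1 at -0.20 (SE 0.19).

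The measured erythroid markers were below 0 at day 4 (5 of 12 measured, 0 passing by limma, median -0.88). Fech, the last enzyme of heme synthesis, was at -1.05 (SE 0.35) and Ermap, a red cell membrane protein, at -0.88 (SE 0.35). The list had medians of -1.28, -0.72 and -1.12 on the 3 day 4 arrays. These medians rest on different genes, since Hba-a1 had no value on array 1 and Gata1 and Blvrb had none on array 3. On array 2 Hba-a1 was above 0, at 0.67. Endothelial markers (3 of 9 measured) had a median of -0.47, and Lyz2, the 1 measured of 8 leukocyte markers, was at -0.45 (SE 0.43), with 0 passing by limma in either list. Fech, Ermap and Hba-a1, the erythroid genes with a value on array 3, were at -1.12, -0.55 and -1.64 there, unlike the keratin clones with a value.

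By their labels all 6 arrays had the later day in Cy5, so a dye effect particular to a clone cannot be told apart from a difference against day 0. The arrays gave 8272 values each except day 4 array 1 with 7775 and day 4 array 3 with 5630, where 2640 clones lay in a failed area. The RNAs of a group are labelled as biological replicates.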

How the data were processed

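Ovary RNA was measured on 6 two-colour cDNA arrays. The deposited files hold, per the file headers, 4 repeat log2 ratios per clone and array (later day in Cy5 over day 0 in Cy3), a mean log2 intensity and flags that the headers do not define, whose values were taken to mark low signal, discordant repeats and failed areas. The authors' normalization is not given in the sources used here, and the submitters' processing notes name R 1.7.1. The authors' deposited table of mean log2 ratios matched the mean of the repeats within 0.01 for 46493 of 46493 values. The deposited clone annotation, an other kind of field, gave gene names: 1443 clones through a RefSeq gene table, 73 by hand and 3038 by their annotation name, leaving 3718 unnamed.

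The mean of the repeats was used with no further normalization. Clones needed values on 2 or more arrays per age (8135 of 8272), and for these limma 3.58.1 in R 4.3.3 fitted 1 mean per age on all 6 arrays with moderated variances (2.03 prior degrees of freedom), 2-sided, with Benjamini-Hochberg adjustment over all 8135 and a threshold of 0.05. SD is over the arrays of an age and SE is from this fit. Precision is limited by how few arrays there are, with a median SE of 0.19 at day 4. The code was tested on simulated data. Keratin clones, gene lists, alternatives and the rule for named genes were chosen with earlier results of these data known. From each list the text names up to 4 genes: those past the test by size, then, among genes with a value on all 6 arrays, those with the day 4 log2 ratio farthest from 0, in the brightest clone. Genes named as nearest to Krt18 clone BG077966 had a value on all 6 arrays. Deviations from the age means of same-numbered arrays correlated at 0.37, 0.05 and 0.52, so that the numbers do not pair the arrays throughout. Alternatives covered centring, scaling, flags, the sign of day 2 arrays, left-out arrays and the other Krt18 clone.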

Additional observations from a re-analysis of the deposited data

How the results depend on the processing

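Krt18 clone BG077966 stayed below 0 at day 4 under each alternative run, between -0.73 and -0.37 with single arrays left out, and the other clone gave -1.63. At day 2 it lay between -0.40 and -0.04 with single arrays left out. The median of the 4 keratin genes lay between -0.69 and -0.32 at day 4 and between -0.24 and 0.11 at day 2 with single arrays left out. Of 117 alternative day 4 values of the single clones, 66 could not differ or did not differ from the reported value, and the other 51 were below 0. Scale normalization was the 1 setting run in which a keratin clone (BG063483 at day 4) passed the limma threshold. That pass carries no weight as a test, since the family was picked with its day 4 values known.

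The number of clones called at day 4 by limma (39) was not stable. It was 96 after scale normalization (8 lower) and 126 with trend and robust moderation (9 lower). It was 0 with the sign of day 2 replicate 2 turned (897 at an unadjusted p under 0.05) and 0 without array 3 of both ages (433 unadjusted), a setting added after seeing the data, as was the other Krt18 clone. With single arrays left out it ran from 0 to 71: 71 without day 2 replicate 1, 16 without day 2 replicate 3 and 0 without any 1 of the day 4 arrays. Fewer clones were tested without a day 4 array (5630, 5270 and 7775 without arrays 1, 2 and 3, with 339, 380 and 588 at an unadjusted p under 0.05). Day 4 against day 2 gave 1 call with trend and robust moderation and 0 with the replicate number as a block, as in the fit without it. By deviations, day 2 arrays 1 and 3 were nearest to their own number among the day 4 arrays and array 2 was not. Number 3 is a pair by its shared day 0 RNA, and numbers 1 and 2 have no such link in the labels.

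Genes with a day 4 value near 0 changed sign. Perp was at 0.0076 without array 3 of both ages and ran from -0.39 to 0.0076 with single arrays left out. Lmna was at -0.33 without array 3 of both ages, -0.024 after scale normalization and between -0.33 and 0.45 with single arrays left out. Lmnb1 ran from -0.10 to 0.0069, Nr5a1 from -0.32 to 0.15 and Pdgfra from -0.15 to 0.44 with single arrays left out. The causes were not tested.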
